A study of Mus musculus with 18 samples.

Results

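The genes that load and activate the replicative helicase were examined in mouse prostate tumours and normal prostate. The set held 10 genes: the 6 subunits of the MCM2-7 ring (Mcm2, Mcm3, Mcm4, Mcm5, Mcm6 and Mcm7), the loading factors Cdt1 and Cdc6, the licensing inhibitor Gmnn (geminin) and the helicase activation factor Mcm10. All probe sets annotated to 1 of these symbols and to no other gene were taken, which gave 27 of the 45101 probe sets on the array, and 21 of the 27 were bright enough to be tested. Each of the 10 genes had at least 1 such probe set, so all 10 were among the 12793 genes tested.

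Tumours of TRAMP mice (a transgenic adenocarcinoma model of mouse prostate) were compared with normal prostate, 9 samples each, with 1 Affymetrix array per sample. In the TRAMP model a probasin promoter drives the SV40 early region, including large T antigen, in prostate epithelium. The labels name ventral and dorsolateral lobes for the normal prostates and only the tumour for TRAMP, while strain, age and treatment are not given in the sources used here. The labels do not state whether the samples came from different animals, and the p-values therefore describe only how far these samples spread, which may be technical.

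Before a cell copies its DNA, the origin recognition complex marks each origin, and Cdc6 and Cdt1 then load a pair of MCM2-7 rings around the double helix, a step called licensing. In S phase the loaded rings are switched on by the kinases Cdc7 and Cdk2 and by Mcm10, Cdc45 and the GINS complex, and they become the moving helicase. Geminin binds Cdt1 and keeps origins from being licensed again until mitosis is over. Transcription of many of these genes is under E2F control, and large T antigen is known to bind the RB proteins that restrain E2F. MCM proteins are widely used as markers of cells in the division cycle.

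Values are log2(signal + 16) of the brightest tested probe set of a gene, the fold changes are on that scale and understate the change of dim genes, and ± gives SD for levels and SE for fold changes. Adjusted p-values are from limma over 12793 genes. Dim refers here to a value below the 40th percentile of the same array (a signal of 104.3 to 153.9). The labels name no batch, but the level of the poly-A spike controls placed the arrays in 2 sets, called batches here: bright on 5 tumour and 6 normal arrays and dim on 4 tumour arrays (6 to 9) and 3 normal arrays (7 to 9). Markers of the seminal vesicle, a neighbouring gland, had a mean log2 level of 15.08, 15.57 and 14.98 in tumours 3, 5 and 7, of 10.83 and 10.85 in tumours 6 and 8, and of 12.09 on normal prostate 9. The other tumours and normal prostates lay between 5.30 and 8.34. The prostate secretory markers averaged 6.02 on normal prostate 9, against 11.75 to 15.01 on the other 8 normal arrays, so this array goes against its label. Urothelial markers were high in tumour 4 (mean 13.67) and on normal prostates 3 and 5 (13.85 and 12.15).

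Genes of helicase loading were higher in TRAMP tumours as a group. Of the 10 genes, 9 rose and none was lower at an adjusted p of 0.05 or less, where 11.3% of all genes tested rose, 12.7% fell and 24% were called in either direction. The exception was Mcm10. One of the 9, Cdc6, was dim on all 9 normal arrays and was tested only because all 9 tumours passed the filter, so it had to differ and is set apart here. Of the other 9 genes 8 rose, and for 7 every tumour lay above every normal prostate, which held in this direction for 1.45% of all genes. The median log2 fold change of these 9 genes was 2.62, against -0.0125 over all genes tested. In the first batch alone 9 of the 10 genes passed the filter (Cdc6 did not) and 8 of them rose, where 7.28% of all genes did. In the second, with 4 tumours and 3 normal prostates, limma called none of the 10 (and none of 12644 genes). Of the 10, 9 had an unadjusted limma p under 0.05, Cdc6 among them, as had 1628 of 12644 genes in either direction. The median of the 10 was 2.69. It includes Cdc6, which passed the filter there only through the tumours. Without normal prostate 9 and tumours 3, 5 and 7, 9 genes passed the filter, again without Cdc6, and the 9 rose with a median of 2.96, where 13.9% of all genes rose. The log2 ratio of 3' to 5' actin probe sets, a sign of RNA quality, was 0.46 to 2.18 in tumours (mean 1.12) and 0.314 to 2.48 in normal prostate (mean 1.71). With this ratio as a covariate 9 of the 10 genes still rose, where 765 of all 12793 genes did. The 9, and the median of 2.58 over the 10, include Cdc6. In whole tissue, a larger share of cells of a type and more RNA per cell cannot be told apart.

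**Figure D1:**
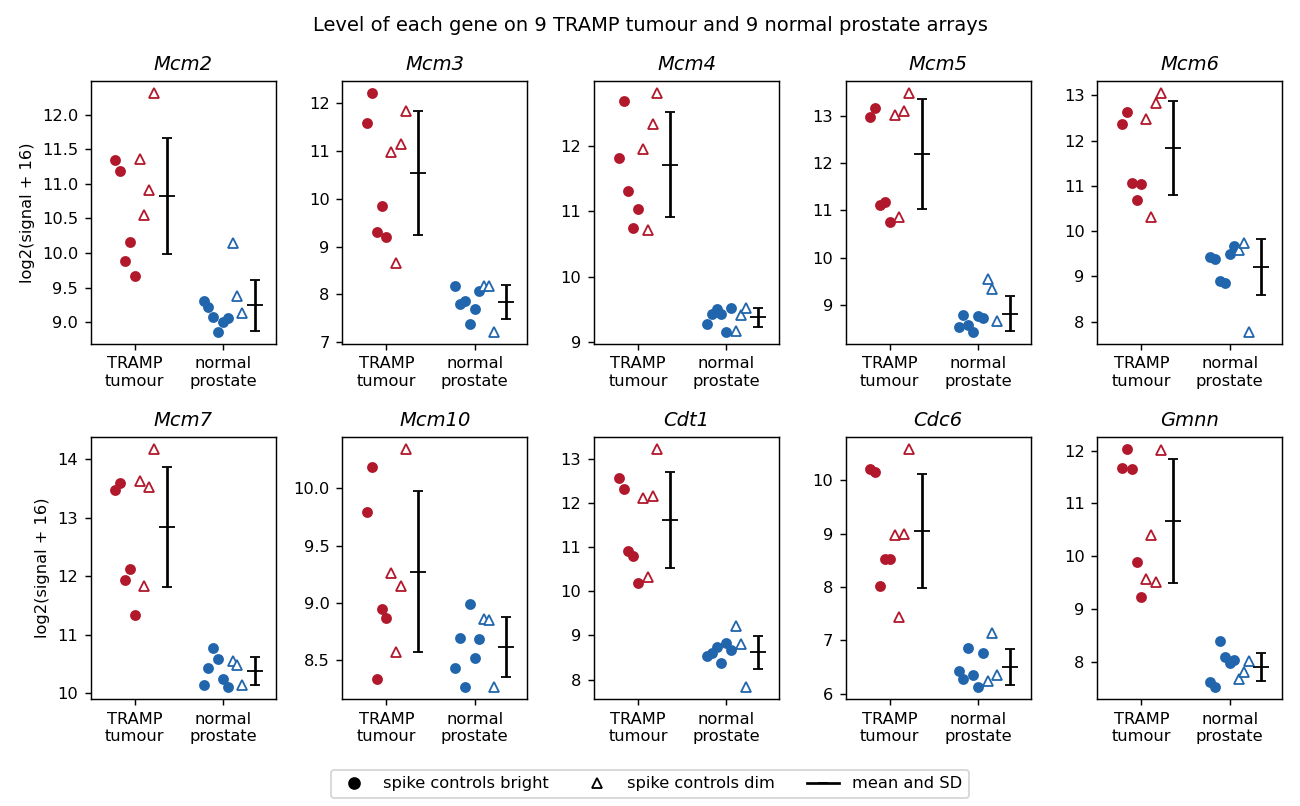
Level of each of the 10 genes, as log2(signal + 16), on 9 TRAMP tumour arrays (red) and 9 normal prostate arrays (blue), with the mean and SD in black and filled or open symbols for the 2 batches. All tumours lie above all normal prostates except for Mcm2 and Mcm10, and the tumours spread more widely for every gene. Such a separation held in this direction for 1.45% of all genes tested. Cdc6 was dim on all 9 normal arrays and tested only through the tumours, so it had to differ.

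Promoter windows of the genes are given here because most members rose and E2F control is textbook for them. RefSeq sequence of build GRCm38.p6, from 250 bases before to 50 after an annotated start, was on hand for 8 of the 10 genes, all but Mcm4 and Gmnn, and a gene can have other starts. Each window was searched on both strands for the E2F motif in 4 spellings, TTTCCCGC, TTTGGCGC, TTTCGCGC and TTTGCCGC, in a search added when the expression values were known. A match was found for 6 of the 8 genes (75%), namely Mcm3, Mcm5, Mcm6, Mcm7, Cdt1 and Cdc6. The same letters stood in the windows of 4.49% of 10298 tested genes and in 2.26% of all 32851 windows. The share was 29.4% among 51 other genes from lists of origin licensing, firing and E2F control. These lists also hold S phase cyclins, fork protection, Cdt1 and geminin turnover, relatives of the ring and the proliferation markers Mki67 and Pcna. Matches of different spellings can overlap on opposite strands. The 4 windows printed are those of Mcm5 and Cdt1, which had the highest fold changes of the set, of Mcm6, which had the most matches (3), and of Mcm10, as an example of a window without a match. Of the 2 genes without a match, Mcm2 rose and Mcm10 was not called. Capitals mark the matches, and each window is written along the strand of its gene.
Mcm5: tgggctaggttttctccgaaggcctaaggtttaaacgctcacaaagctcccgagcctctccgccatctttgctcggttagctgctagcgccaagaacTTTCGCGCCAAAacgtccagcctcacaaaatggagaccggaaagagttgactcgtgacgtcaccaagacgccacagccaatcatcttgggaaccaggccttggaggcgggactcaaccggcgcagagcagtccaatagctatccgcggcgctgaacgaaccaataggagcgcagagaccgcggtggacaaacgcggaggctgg
Mcm6: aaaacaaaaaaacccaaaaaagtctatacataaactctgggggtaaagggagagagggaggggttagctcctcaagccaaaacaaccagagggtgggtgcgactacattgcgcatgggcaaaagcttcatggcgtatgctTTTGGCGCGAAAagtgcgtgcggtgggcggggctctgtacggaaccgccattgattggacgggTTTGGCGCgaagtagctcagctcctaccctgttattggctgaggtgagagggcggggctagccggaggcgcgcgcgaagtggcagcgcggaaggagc
Cdt1: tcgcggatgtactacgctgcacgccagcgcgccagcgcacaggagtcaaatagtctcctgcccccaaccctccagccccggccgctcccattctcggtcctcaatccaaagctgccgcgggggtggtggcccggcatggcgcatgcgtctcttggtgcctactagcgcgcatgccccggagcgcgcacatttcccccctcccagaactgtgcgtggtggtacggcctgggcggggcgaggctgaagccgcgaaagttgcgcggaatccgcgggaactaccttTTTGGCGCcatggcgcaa
Mcm10: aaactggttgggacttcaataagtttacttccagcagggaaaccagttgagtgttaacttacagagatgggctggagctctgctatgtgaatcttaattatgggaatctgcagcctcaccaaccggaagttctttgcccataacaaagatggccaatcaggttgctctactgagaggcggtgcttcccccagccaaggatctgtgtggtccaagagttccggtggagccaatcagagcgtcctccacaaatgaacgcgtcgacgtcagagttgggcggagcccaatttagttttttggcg
These windows are chr8:75109259-75109558 (plus strand) for Mcm5, chr1:128359656-128359955 (minus strand) for Mcm6, chr8:122567765-122568064 (plus strand) for Cdt1 and chr2:5012742-5013041 (minus strand) for Mcm10. In Mcm5 the capitals are 2 overlapping matches, TTTCGCGC on the strand of the gene and TTTGGCGC on the other, that begin 153 and 149 bases before the start. Mcm6 has a like pair in the reverse order, 110 and 106 bases before the start, and a single TTTGGCGC at 47 bases. The match of Cdt1 lies downstream, 32 bases after the start. The Mcm10 window ends with the first 7 letters of TTTGGCGC, and the next base lies beyond its edge, so the end of the window may decide that no match was found. A match is a run of letters, and none of these arrays measured E2F binding. The G2 and M phase motif CHR (TTTGAA) stood in 1 of the 8 windows, that of Mcm2, and in 14.4% of tested genes.

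**Figure D2:**
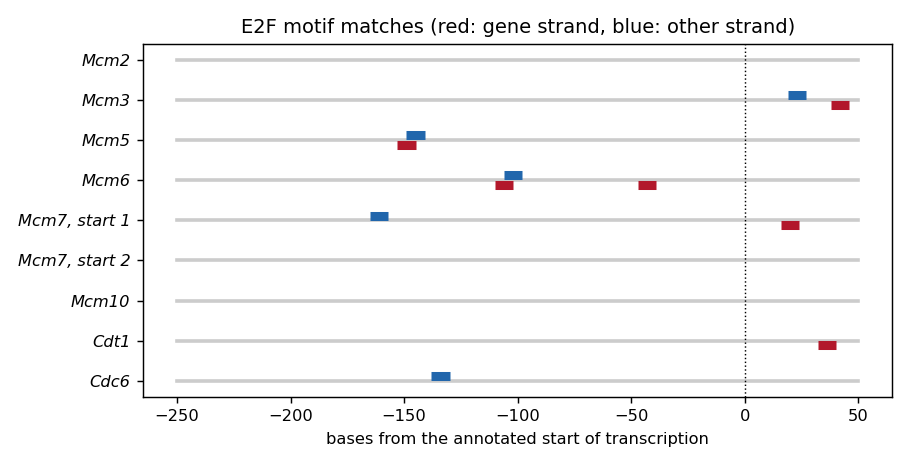
Position of E2F motif matches in the 9 promoter windows of 8 genes (grey lines, from 250 bases before to 50 after an annotated start, dotted), with matches on the gene strand in red and on the other strand in blue. Matches stand in 6 of 8 genes, and Mcm2, Mcm10 and the second start of Mcm7 have none.

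All 6 subunits of the ring rose. Mcm5, one of the subunits at the gate through which DNA enters the ring, ranged from 10.75 to 13.48 in tumours with a median of 12.98, and from 8.45 to 9.56 with a median of 8.74 in normal prostate. The groups did not overlap, and the lowest tumour stood 1.19 above the highest normal prostate. Its log2 fold change of 3.36 ± 0.381 (limma adjusted p = 3.55e-05) was the 25th highest of all genes tested. Mcm4, one of the subunits of the catalytic core, ranged from 10.71 to 12.80 in tumours (median 11.82), against 9.16 to 9.52 (median 9.43) in normal prostate. Here too the groups lay apart, by 1.19, and the 9 normal prostates had the smallest SD of the set, 0.143. The fold change of Mcm4 was 2.32 ± 0.262 (adjusted p = 3.45e-05), and its t value was the 10th highest of all genes.

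Mcm6 and Mcm7, which form the catalytic core with Mcm4, behaved alike in direction. Mcm7 had a median of 13.46 in tumours (11.33 to 14.18) and of 10.43 in normal prostate (10.10 to 10.77), with a fold change of 2.46 ± 0.333 (adjusted p = 9.78e-05). Mcm6 had a median of 12.38 in tumours (10.31 to 13.05) and of 9.43 in normal prostate (7.78 to 9.73), with a fold change of 2.62 ± 0.379 (adjusted p = 0.000159). Neither gene overlapped between the groups. The lowest Mcm6 value of the series belonged to normal prostate 9, the array high in seminal vesicle genes.

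Mcm3 and Mcm2 complete the ring, Mcm2 being the partner of Mcm5 at the gate. Mcm3 ranged from 8.66 to 12.22 in tumours (median 10.98) and from 7.22 to 8.18 in normal prostate (median 7.85), again with no overlap. It rose by 2.70 ± 0.421 (adjusted p = 0.000292). Mcm2 had the smallest rise of the ring, 1.58 ± 0.293 (adjusted p = 0.00107). It ranged from 9.67 to 12.32 in tumours (median 10.91) and from 8.86 to 10.14 in normal prostate (median 9.14). The groups overlapped because normal prostate 7 reached 10.14, above 2 of the 9 tumours, while within each batch every tumour was above every normal prostate. A second probe set for Mcm2 gave 2.04 ± 0.347 (adjusted p = 0.000712 over all probe sets).

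Of the loading factors, Cdt1 rose and Cdc6 can be given only as a bound. Cdt1, which brings the ring to the origin, ranged from 10.18 to 13.23 in tumours (median 12.12) and from 7.83 to 9.21 in normal prostate (median 8.66). Its fold change of 3.0 ± 0.362 (adjusted p = 5.25e-05) was the next highest of the set after Mcm5, and the groups lay 0.97 apart. Cdc6, the ATPase that works with the origin recognition complex, ranged from 7.44 to 10.59 in tumours (median 8.96) and from 6.12 to 7.14 in normal prostate (median 6.36). Cdc6 was dim on all 9 normal arrays and on none of the tumours, and it was tested only through the tumours, so no p-value is given for it. With dim values raised to the 40th percentile of their array, its level in tumours was higher by at least 3.80-fold. Because it was bright on tumour arrays alone, Cdc6 passed the filter by exactly the 9 arrays required, and it dropped out of the test whenever a tumour was left out.

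The inhibitor rose as well as the factor it restrains. Gmnn ranged from 9.23 to 12.04 in tumours (median 10.40) and from 7.52 to 8.39 in normal prostate (median 7.98), with no overlap. The fold change was 2.76 ± 0.378 (adjusted p = 0.000106). Gmnn rests on a single probe set, as does Cdc6.

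Mcm10 was the gene of the set that did not pass. It ranged from 8.34 to 10.35 in tumours (median 9.15) and from 8.27 to 8.99 in normal prostate (median 8.68). Only tumours 1, 2, 6, 8 and 9 lay above the highest normal prostate, and tumour 3, the lowest, was near the lowest normal prostate (8.34 and 8.27). The fold change was 0.66 ± 0.242 with a 95% interval of 0.15 to 1.16 (limma adjusted p = 0.0555). Leaving out tumour 3, 5 or 7 alone brought Mcm10 past the threshold (adjusted p = 0.0215, 0.0464 and 0.0336), and without these and normal prostate 9 it rose by 0.95 ± 0.223 (adjusted p = 0.00506). Tumours 3, 5 and 7 had the lowest Mcm10 values of the tumours (8.34, 8.87 and 8.58), so leaving any of them out had to raise the fold change. These 3 tumours are also those highest in seminal vesicle markers, whose part in the result was not tested. The other 2 probe sets of Mcm10 were too dim to be tested: one was dim on 6 of 9 tumour and 8 of 9 normal arrays, the other on 8 of 9 tumour arrays and all 9 normal arrays.

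Other genes that act on the loaded ring were counted from lists drawn up for this pathway. Of 13 genes of helicase activation and origin firing 9 rose and none fell. The median log2 fold change of the 13 was 1.38. Donson, which helps deliver GINS to the ring, rose by 1.25 ± 0.17 (adjusted p = 0.000104). The GINS subunit Gins1 rose by 2.49 ± 0.378 (adjusted p = 0.000239) but was dim on 8 of 9 normal arrays, and with dim values raised the difference was 1.99. Wdhd1, which ties the helicase to DNA polymerase alpha, rose by 2.20 ± 0.347, and Dbf4, the activating subunit of Cdc7, by 2.23 ± 0.394 (adjusted p = 0.000318 and 0.000759). The 4 genes not called were Ticrr, Recql4, Gins3 and Cdc45, with fold changes of 0.04 to 0.66 and adjusted p-values of 0.0541 to 0.909, Ticrr being nearest to the threshold.

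Cdc45 depended on the probe set. The probe set that represents Cdc45 averaged 8.41 in tumours and 8.37 in normal prostate (0.04 ± 0.219, adjusted p = 0.909). A second, with a mean of 8.88 in tumours and 5.60 in normal prostate, was dim on all 9 normal arrays and 1 tumour array, fell 1 array short of the filter and was not tested. With dim values raised it was 3.41-fold higher in tumours, which is no lower bound, as the dim tumour value was raised too. Cdc45 and its second probe set were singled out when their values had been seen.

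The origin recognition complex had fewer calls. Of 7 genes 2 rose and none fell, with a median of 0.26, where 11.3% of all genes rose. Orc6, a small subunit, rose by 1.20 ± 0.301 (adjusted p = 0.00763), and Lrwd1, a protein that binds the complex on chromatin, by 1.24 ± 0.212 (adjusted p = 0.0006). Orc1 to Orc5, named after their values were seen, were not called, with fold changes of -0.10 to 0.37 and adjusted p-values of 0.141 to 0.895. For Orc2, Orc4 and Orc1 the 95% intervals were -0.30 to 0.60, -0.47 to 0.26 and -0.36 to 0.29. For Orc1 the 2 tested probe sets differed: the brighter gave -0.03 and the other 0.97 ± 0.328 (adjusted p = 0.0433 over all probe sets). The difference between the complex and the MCM ring was not tested.

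**Figure D3:**
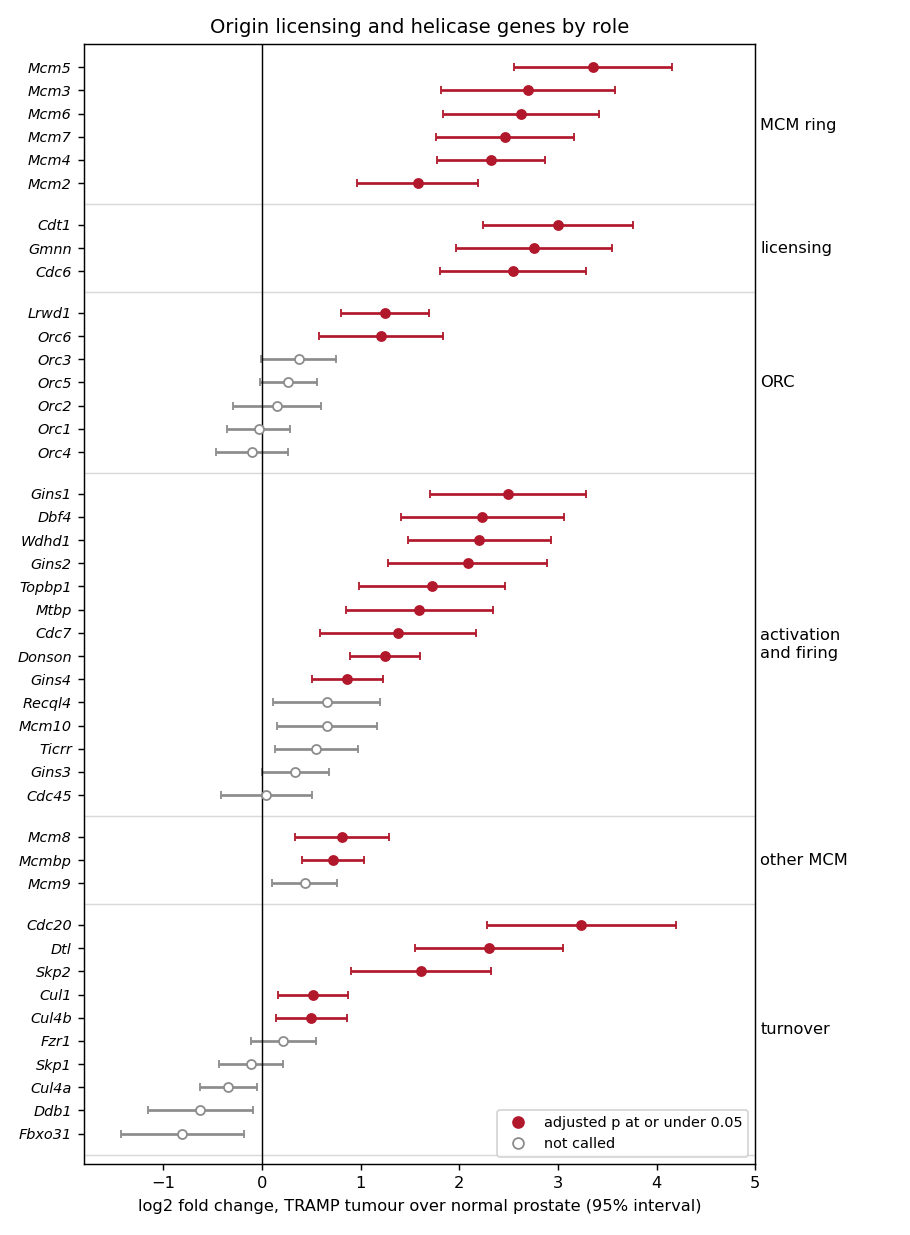
Log2 fold change of TRAMP tumour over normal prostate with its 95% interval for genes grouped by role, filled red where the limma adjusted p was at or under 0.05 and open grey where it was not. The 6 ring subunits and the 3 licensing factors lie between 1.58 and 3.36, of which Cdc6 was dim on all 9 normal arrays, and Orc1 to Orc5 between -0.10 and 0.37.

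Relatives of the ring were examined next, without a test against the ring itself. Of 3 tested MCM family genes outside the ring 2 rose: Mcmbp, which binds MCM subunits, by 0.72 ± 0.151 and Mcm8, a helicase of recombination repair, by 0.81 ± 0.227 (adjusted p = 0.00265 and 0.0146). Its partner Mcm9 had a fold change of 0.43 ± 0.158 (adjusted p = 0.0535). Genes that destroy Cdt1 or geminin were mixed, with 5 of 10 higher, none lower and a median of 0.36. Cdc20, an activator of the anaphase-promoting complex, which marks geminin for destruction, rose by 3.24 ± 0.458. Dtl, the adaptor that sends Cdt1 to the CUL4 ubiquitin ligase in S phase, rose by 2.30 ± 0.358, and Skp2, of the SCF ligase, by 1.61 ± 0.339. Cul1, the scaffold of SCF, rose by 0.52 ± 0.171 (adjusted p = 0.0353). Fbxo31, Ddb1 and Cul4a had fold changes of -0.81, -0.63 and -0.34 that did not pass (adjusted p = 0.0544, 0.0823 and 0.0801).

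Of 5 genes of S phase cyclins and their kinase all 5 rose, with a median of 1.53: Ccna2 by 3.34 ± 0.439, Ccne2 by 2.68 ± 0.461, Ccne1 by 1.53 ± 0.337, Cdk2 by 1.24 ± 0.226 and the activating phosphatase Cdc25a by 0.69 ± 0.132. The 3 fork protection genes Timeless, Clspn and Tipin rose too, by 2.96 ± 0.478, 2.39 ± 0.426 and 1.75 ± 0.401. Timeless was dim on 8 of 9 normal arrays, and with dim values raised its difference was 1.61. Of 12 tested genes of the E2F and RB families 5 rose and 1 fell, with a median of 0.52. E2f7, a repressor of the family, rose by 2.97 ± 0.368 (2.06 with dim values raised, as 8 of 9 normal values were dim). E2f1 rose by 1.47 ± 0.253 and Tfdp1, the partner that E2F needs to bind DNA, by 1.13 ± 0.238. The RB relative Rbl1 (p107) rose by 1.61 ± 0.261 (adjusted p = 0.000379), and Rbl2 (p130), named as the 1 gene that fell, fell by 0.71 on the log2 scale (adjusted p = 0.00358). Rb1 itself had a fold change of 0.68 ± 0.315, E2f6 of 0.33 and E2f3 of 0.34, none of them called (adjusted p = 0.123, 0.187 and 0.201). Of 4 chromatin factors linked to licensing 1 rose, Baz1b, by 0.93 ± 0.125. Kat7, the acetyltransferase that assists licensing at origins, had a fold change of 0.33 ± 0.132 (adjusted p = 0.0786). Its partner Ing5 had 0.20 and the histone H4 methyltransferase Setd8 had -0.03, neither called (adjusted p = 0.235 and 0.934).

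The tumours differed more among themselves than the normal prostates did. The SD over tumours exceeded that over normal prostates for all 10 genes, by 1.68 times for Mcm6 to 5.60 times for Mcm4. Tumour 9 was highest for 8 of the 10 genes and among the top 3 for all 10, and tumour 2 was highest for the other two, Mcm3 and Gmnn. Tumour 5 was among the lowest 3 for all 10 genes and tumour 7 for 8. For 9 of the 10 genes tumours 1, 2, 6, 8 and 9 all lay above tumours 3, 4, 5 and 7. The mean over the 10 genes was 11.33 to 12.39 in tumours 1, 2, 6, 8 and 9 and 9.96 to 10.35 in tumours 3, 4, 5 and 7, against 8.29 to 8.92 in normal prostate. Mki67, a marker of dividing cells, split the tumours in the same way, with 12.14 to 13.67 in those 5 and 9.74 to 11.47 in those 4. Neuroendocrine markers had a mean of 11.37, 10.16 and 12.03 in tumours 1, 4 and 9, against 6.46 to 7.50 in the other tumours and 6.47 to 7.0 in normal prostate. Of these 4 tumours, 3, 5 and 7 were high in seminal vesicle markers and tumour 4 in urothelial markers (mean 13.67, against 7.41 to 10.25 in the other tumours). The part of these tissues in the lower levels was not tested.

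Geminin was the gene that departed from this order. In tumours 3 and 7 Gmnn was 3.68 and 2.43 above the median of the normal prostates, while the highest ring subunit was 2.39 and 2.11 above its own. In tumours 6 and 8 Gmnn was 1.59 and 1.53 above the normal median, and the lowest ring subunit 2.23 and 1.78. For the other 9 genes tumours 6 and 8 both lay above tumours 3 and 7, and for Gmnn both lay below. Over the 9 tumours the Pearson correlation of Gmnn with the mean of the other 9 genes was 0.47, where each of the others had 0.88 to 0.98 with the mean of the rest. The close likeness held in the tumours only. Over the normal prostates, which spread less, the correlation was -0.33 for Gmnn, -0.36 for Mcm4 and 0.31 to 0.84 for the rest. These values share arrays and scaling, the tumours fall into separate levels, and they are given as a description that was chosen when the values were known.

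**Figure D4:**
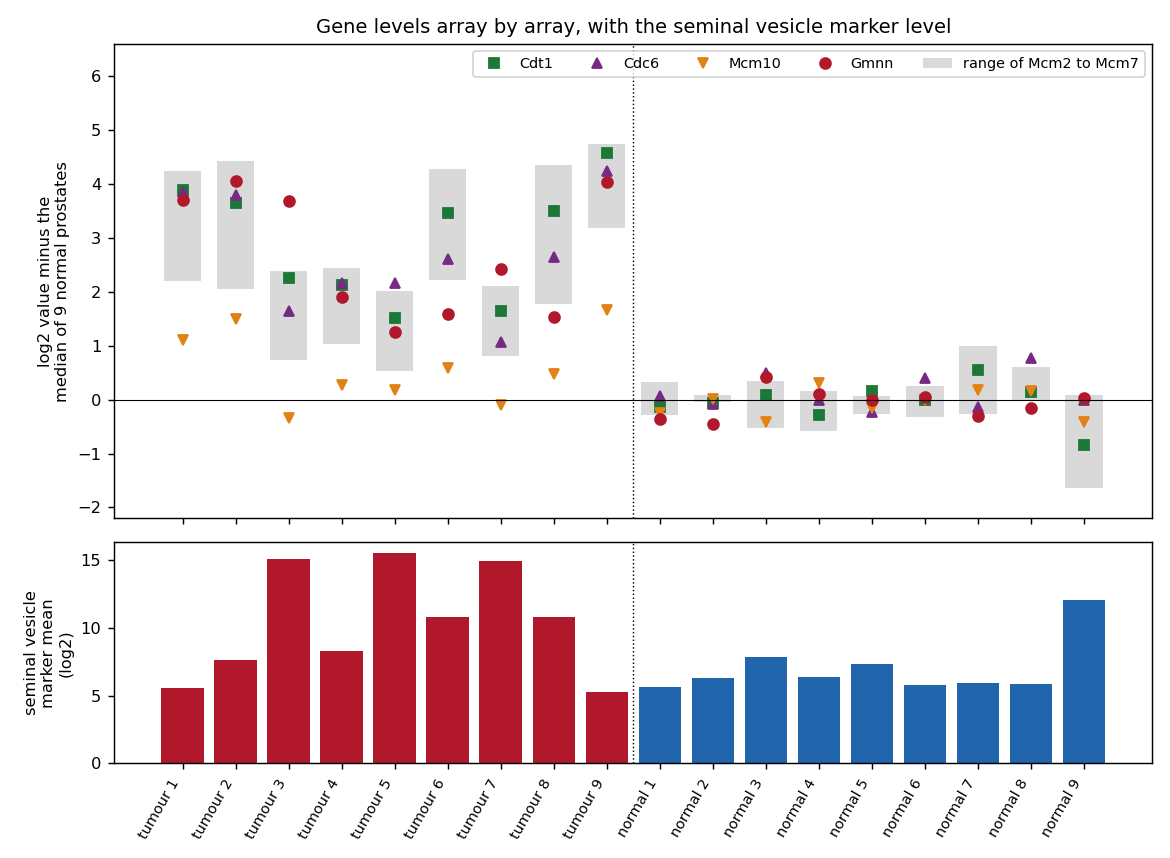
Upper panel: log2 level on each array minus the median of the 9 normal prostates, for Cdt1, Cdc6, Mcm10 and Gmnn (symbols) and the range of Mcm2 to Mcm7 (grey bars), with tumours left of normal prostates. Lower panel: mean log2 level of 6 seminal vesicle markers. Gmnn lies above the grey bar in tumours 3 and 7 and below it in tumours 6 and 8.

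The genes most like the set were sought among all genes tested, as the correlation over 18 arrays with the mean of the 10 genes after each group mean was taken away. The closest were Topbp1, an activator of origin firing, at 0.96, the kinetochore gene Spc24 and Pbdc1 at 0.95, the maintenance DNA methyltransferase Dnmt1, the histone chaperone subunit Chaf1b, the recombination gene Rad54l and the chromatin protein Hmgb2 at 0.94 to 0.95, and the splicing factor gene Sf3b3 at 0.94. Likeness within groups and difference between groups did not always go together. Hmgb2 rose by 2.83 ± 0.347 (adjusted p = 5.45e-05), while Sf3b3 averaged 10.56 in tumours and 10.47 in normal prostate (0.09 ± 0.155, adjusted p = 0.713). The 2 levels among the tumours weigh on these coefficients, which are descriptions. Over the normal prostates alone the coefficient was 0.38 to 0.45 for Spc24, Topbp1 and Dnmt1, and 0.70 to 0.98 for the rest.

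Most probe sets of a gene moved in the same direction. Of the 21 tested probe sets of the 10 genes, 20 rose and none fell (10.1% and 9.48% of all probe sets did). Among the 21, 3 were dim on all 9 normal arrays and tested only through the tumours, those of Cdc6 and 1 each of Mcm3 and Cdt1. Of the other 18, 17 rose and for 14 every tumour lay above every normal prostate, which held for 1.23% of all probe sets. The 4 probe sets of Mcm7 gave 2.19 to 2.46, the 2 of Mcm4 2.32 and 2.35, and those of Mcm6 2.62 and 2.71. A second Cdt1 probe set, dim on all 9 normal arrays, was at least 6.91-fold higher in tumours. Mcm3 varied most, from 1.66 to 3.91 in 4 tested probe sets, the last dim on all 9 normal arrays and so at least 4.03-fold higher. The 6 probe sets that failed the filter belonged to Mcm10 (2), Mcm3, Mcm5, Mcm6 and Cdt1. Those of Mcm6 and Cdt1 were dim on all 18 arrays, so no fold is given. For 9 of the 10 genes, all but Gmnn, the name of the probe set used marks probes that can match more than 1 transcript. Without such probe sets 7 genes could be tested, all but Mcm7, Cdc6 and Mcm10. All 7 rose, where 11.1% of all genes did. The 7 include Cdt1, then represented by its probe set dim on all 9 normal arrays and tested only through the tumours, so it had to differ.

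**Figure D5:**
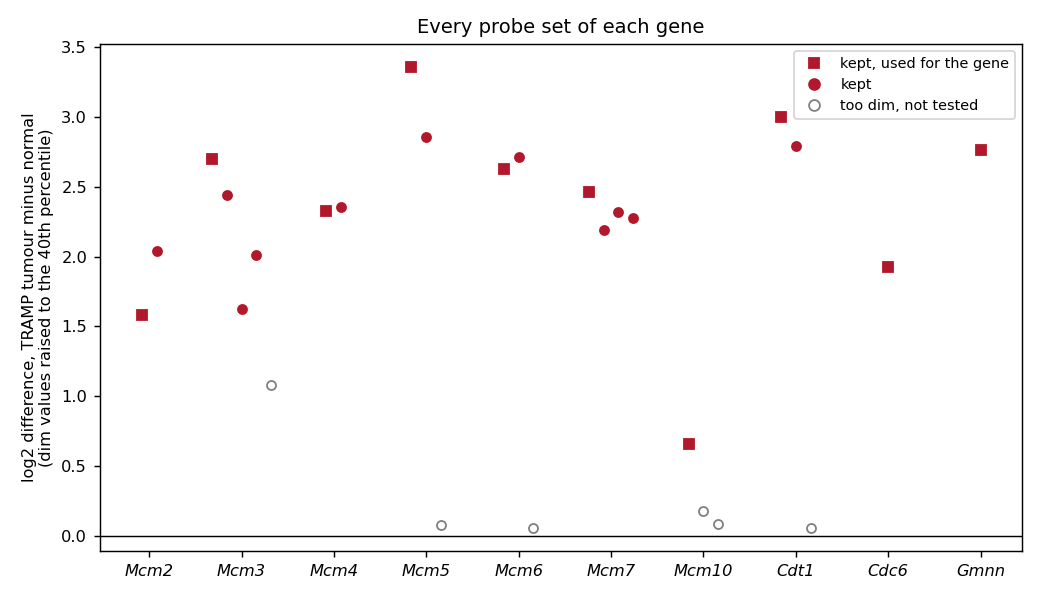
Log2 difference of TRAMP tumour minus normal prostate for all 27 probe sets of the 10 genes, with dim values raised to the 40th percentile of their array. Filled squares are the probe sets used for the genes, filled circles other tested ones and open circles those too dim to be tested. The tested probe sets of Mcm4, Mcm6 and Mcm7 lie close together, and the highest difference is that of Mcm5, 3.36.

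Markers of some other cell types moved with the groups too. None was called of the 4 smooth muscle, 2 skeletal muscle, 3 endothelial and 2 basal epithelial markers tested. All 3 adipocyte markers tested fell (mean 6.99 in tumours and 11.32 in normal prostate), as did the 3 prostate secretory markers tested (7.27 and 12.56, over 4 measured) and Hoxb13, 1 of 3 luminal markers. Of the 3 seminal vesicle markers tested Svs4, dim on 6 normal arrays, rose by 4.73 (limma adjusted p = 0.0459), and Svs5 and Pate4 were not called. Of the 3 urothelial markers tested Upk1a was lower (-2.48, adjusted p = 0.0135), and Upk1b and Upk2 were not called. Of the 2 neuroendocrine markers tested Ncam1 rose by 2.84 (adjusted p = 0.00147) and Syp was not called. The sums of the 5 neuroendocrine markers were 707 to 26624 in tumours and 439 to 2784 in normal prostate. The 3 measured B cell markers had a mean log2 level of 6.86 in tumours and 6.77 in normal prostate, and the 4 T cell markers 6.26 and 6.28. No T cell marker passed the filter, and the 1 B cell marker that did, Ms4a1, was not called. Cd2 was dim on all 18 arrays. Of 5 macrophage markers 2 rose, Aif1 and C1qa, with summed signals of 3494 to 28642 in tumours and 1283 to 6786 in normal prostate. Of 4 fibroblast markers 3 rose, Col1a1, Col1a2 and Thy1. The other, Dcn, went the opposite way and was not called (-0.90, limma adjusted p = 0.225). The sums of the 4 were 4126 to 34093 in tumours and 5100 to 25257 in normal prostate. The part of these cells, and of the tissue that adipocyte and secretory markers stand for, in the rise of the helicase genes was not tested.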

How the data were processed

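Total RNA of 9 TRAMP tumours and 9 normal prostates was isolated with Trizol, labelled with biotin and measured on Affymetrix arrays, per the labels. Each deposited value is a linear signal intensity of a probe set, for which the submitters' processing notes name MAS5 without a version. The 2% trimmed mean was 500 on every array. GEO's platform annotation gave the gene symbols, and 34945 probe sets carry exactly 1.

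Log2(signal + 16) was computed. Probe sets had to exceed the array's 40th percentile on 9 or more of the 18 arrays (27292 did, 60.6%), and each gene was represented by its kept probe set with the highest mean. A two-sided test of 12793 genes with group as the only term used limma 3.58.1 (lmFit, eBayes) under R 4.3.3, with Benjamini-Hochberg adjustment at 0.05, after the code was tested on simulated data. Named genes were the 10 members, at most 4 of each list, taken by absolute t, at most 3 of each that were not called, the 8 genes most like the member mean, Mki67 and the cell type markers. Rbl2, Ccne1, Cdc45 and some of Orc1 to Orc5 were added after their values were seen. The members, lists and alternatives were chosen with earlier results of these data known. Promoter sequences came from RefSeq. The samples were not paired by replicate number in the test. Deviations of same-numbered arrays correlated at -0.106 to 0.314, and at over 0.1 for 1 of 9 pairs. That was pair 8, where the normal prostate most like the tumour bore its own number. These correlations also carry differences in tissue content, so they cannot settle whether same-numbered samples belong together. Python 3.11.15 and matplotlib 3.10.9 made the figures.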

Additional observations from a re-analysis of the deposited data

Results flagged for a closer look

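Mcm2 on normal prostate 7 lay far from the other normal prostates, at 10.14 where the next highest was 9.38. Mcm6 on normal prostate 9 lay far below them, at 7.78 where the next lowest was 8.84. These were the only arrays that stood apart among 20 groups of 9 values examined, and chance alone flags about 1 in 20 such groups. Normal prostate 7 was also the highest normal array for Mcm5 and Cdt1, and normal prostate 9 was the lowest for Mcm3 and Cdt1.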

How the results depend on the processing

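The number of arrays limits the precision, and Cdc6, dim on all 9 normal arrays, has only a bound there. Across pseudocounts, filters, normalizations, moderation, array weights, the batch as a block, the actin 3' to 5' ratio as a covariate, array subsets, probe set rules and omission of single arrays, no fold change of the 10 genes changed sign. With the replicate number as a block 9 of 10 genes were again higher, Cdc6 among them, where 1215 of 12793 genes rose. Of the probe sets 20 of 21 were higher, and the 21 include 3 that were tested only through the tumours. Genes called in all fell from 3067 to 2645. In the second batch alone limma called 0 of 10 genes, 0 of 21 probe sets and 0 of 12644 genes, with 1628 at an unadjusted p under 0.05, and the 10 genes had adjusted p-values of 0.224 to 0.542; that fit has 7 arrays. With the actin ratio as a covariate 1633 genes were called, 765 of them higher, but still 9 of the 10, Cdc6 included. The count was 4889 with normal prostate 9 and tumours 3, 5, 6, 7 and 8 left out. Mcm10 passed in 6 settings. Among them were those without tumour 3, 5 or 7, the tumours lowest in Mcm10, and a 60th percentile filter (adjusted p = 0.0499). The others were both sets without arrays high in seminal vesicle genes (1.16 ± 0.239 and adjusted p = 0.00256 in the smaller). The adjusted p of Mcm10 ranged from 0.00256 to 0.542 over all settings. The cause was not tested. With single arrays omitted, 8 to 9 of the genes (Cdc6 failed the filter without any 1 tumour) and 17 to 20 probe sets were called higher, the median fold change was 2.47 to 2.79 and 2439 to 3379 genes were called in all. Genes that rose were 47.1% of all calls. With arrays centred on their 75th percentile they were 35.3% (1123 higher and 2057 lower of 12793 genes). There 9 of the 10 still rose, Cdc6 among them.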
